A study of Mus musculus with 16 samples.

Results

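The antioxidant, glutathione and NRF2 genes are 44 protein-coding genes, chosen by symbol as regulators, enzymes and metal-binding proteins of the cell's defence against oxidants, out of 52459 genes in the count table. All 44 were found, and all 44 passed the filter on low counts. They were measured by RNA sequencing in stromal cells, called mesenchymal stem cells in the labels, sorted from the bone marrow of Townes mice, a knock-in model of sickle cell disease. The sort gated out cells with CD45 (leukocytes), Ter119 (red cells) or CD31 (endothelium) and kept those with CD51 and CD140a. Each of 2 genotypes had 4 libraries, and each library was read on 2 lanes and is 1 column of the table.

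Both genotypes carry the human alpha-globin allele Hbatm1(HBA)Tow (hα) in place of mouse alpha globin. SS mice are homozygous for human sickle beta globin (hα/hα::βS/βS), on an allele that also holds the human Aγ-globin gene and replaces the mouse major and minor beta-globin genes. SA mice, the controls, have 1 sickle and 1 wild-type human beta-globin allele (hα/hα::βA/βS), so the comparison is of sickle homozygotes with carriers, and no mouse without a sickle allele was analysed here. The sources used here name no treatment and do not give age, sex or whether marrow was pooled. The comparison asks how the stromal transcriptome differs between sickle cell disease and carrier marrow.

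NRF2, the product of Nfe2l2, is a transcription factor held at low levels by KEAP1, which binds it and hands it to a ubiquitin ligase. Oxidants and electrophiles modify KEAP1, NRF2 then accumulates, pairs with a small MAF protein, and activates genes through a DNA element called the antioxidant response element (ARE). Its targets make glutathione, reduce peroxides, recycle thioredoxin and supply NADPH, the electron donor of both systems. In sickle cell disease, haemolysis releases haem and iron, and marrow stroma lies beside the red cell precursors.

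To show the element in these genes, promoter windows from RefSeq (GRCm38.p6, 250 bases before to 50 after a gene's start) were searched on both strands for the ARE core TGACNNNGC. RefSeq windows matched 39 of the 44 members, and 13 of them (33.3%) held the core, against 14.0% of all 27025 genes with such a window. The holders were G6pdx, Gclm, Gstm5, Me1, Mgst1, Mt2, Nfe2l2, Pgd, Prdx1, Sesn2, Sod1, Srxn1 and Txnrd1. In Me1, Mt2 and Prdx1 the match includes the AP-1 motif TGANTCA, which shares its first letters. That motif was found in 6 of the 39 members (15.4%) and in 8.97% of all genes. A match in such a window is a string of letters, not a measured binding site. Bases outside the window were not searched, so a gene without a match may hold the core elsewhere. Stretches are shown from 6 holders that act at different steps (the regulator itself, glutathione synthesis, thioredoxin recycling, peroxide and superoxide removal, metal binding). They are written 5′ to 3′ on the gene's strand, with the match in capitals, which reads as the core on the opposite strand in Gclm, Txnrd1, Prdx1 and Sod1.
Nfe2l2, chr2:75704870-75704913, minus strand: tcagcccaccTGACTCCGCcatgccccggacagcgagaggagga
Gclm, chr3:122245398-122245456, plus strand: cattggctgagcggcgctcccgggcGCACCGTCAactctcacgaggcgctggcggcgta
Txnrd1, chr10:82859089-82859147, plus strand: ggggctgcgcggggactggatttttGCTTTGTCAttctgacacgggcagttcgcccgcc
Prdx1, chr4:116685441-116685499, plus strand: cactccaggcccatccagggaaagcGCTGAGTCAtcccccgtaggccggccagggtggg
Sod1, chr16:90220681-90220739, plus strand: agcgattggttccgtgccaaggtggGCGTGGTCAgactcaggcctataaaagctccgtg
Mt2, chr8:94172514-94172572, plus strand: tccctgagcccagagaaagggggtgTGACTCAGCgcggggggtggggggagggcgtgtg
In GENCODE M21 the Nfe2l2 and Mt2 stretches overlap an exon of a gene on the opposite strand (E030042O20Rik and Gm45774), and the other 4 overlap no exon. The Gclm, Prdx1 and Mt2 stretches lie 159 to 101, 158 to 100 and 104 to 46 bases before their RefSeq starts. The Txnrd1 stretch lies 117 to 59 bases before a RefSeq start that is inside the gene as GENCODE M21 places it (chr10:82833951-82897712), not at its first base.

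Total counts per library ran from 24797857 to 31117007. Each of the 10 stromal markers had at least 4854 counts in every library. RNA of the gated-out blood cells was present in every library too: Ptprc, which encodes CD45, was at 49.7 to 748 CPM (the usual unit of counts relative to the library's total, here adjusted by TMM factors), and none of 15 pan-leukocyte markers was at 0 in any library. The summed level of those 15 was 4194, 4827, 1450 and 768 CPM in SA replicates 1 to 4 and 2847, 453, 1183 and 377 CPM in SS replicates 1 to 4. The genotypes overlapped (two-sided exact permutation test over 70 arrangements, p = 0.200, smallest possible 0.0286), and SA replicates 1 and 2 with SS replicate 1 were the 3 leukocyte-rich libraries. SS replicate 2 stood apart in sex-linked transcripts, with 57347 counts of Xist and 12 of the Y-linked Ddx3y, against at most 420 and at least 2282 in the other 7. Its titles are also the only ones with their date-like number. Those numbers form 3 sets, 1 of them all SA and the other 2 SS, so they cannot be told apart from genotype. In bulk libraries such as these, fewer cells of a type and less RNA per cell cannot be told apart.

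Over all 8 libraries, the glutathione peroxidases Gpx3, Gpx1 and Gpx8 had the highest mean levels of the 44 members per kilobase of exon. This scale divides by all annotated exon bases of a gene, so it compares genes only roughly. Gpx3, the secreted plasma peroxidase, was the highest, at 1159 ± 665 CPM per kilobase in SA and 1170 ± 432 in SS (mean ± SD, n = 4). Gpx1, the cytosolic peroxidase, followed at 328 ± 151 CPM per kilobase in SA and 246 ± 75.9 in SS. Gpx8, a peroxidase of the endoplasmic reticulum, was at 111 ± 42.6 and 196 ± 62.6, Txn1, cytosolic thioredoxin, at 124 ± 27.6 and 103 ± 9.83, and Gsr at 95.2 ± 40.0 and 52.3 ± 24.8 CPM per kilobase. In SA the intervals of mean ± SD of Gpx8, Txn1 and Gsr overlapped, and those of the next in the order, Prdx1 and Cat, overlapped in both genotypes. The median member was at 16.8 CPM per kilobase over all 8 libraries. The other glutathione peroxidases were at 19.4 (Gpx7) and 11.2 (Gpx4). At the low end were Nqo1 at 4.02 ± 2.17 and 1.58 ± 0.682, Slc7a11 at 3.87 ± 2.15 and 1.20 ± 1.599, Gss at 2.08 ± 1.601 and 2.25 ± 1.28, and Sesn2 at 2.21 ± 2.84 and 1.595 ± 0.491 CPM per kilobase in SA and SS. Slc7a11 alone had fewer than 10 counts in any library, with 6 in SS replicate 2. 7 members varied less than 2-fold between their lowest and highest library (Nfe2l2, Gclm, Sod1, Cat, Prdx2, Txn1 and Txnrd1), and 8 varied more than 5-fold (Slc7a11, Gss, Sod3, Gpx7, Sesn2, Nqo1, Taldo1 and Tkt).

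**Figure D1:**
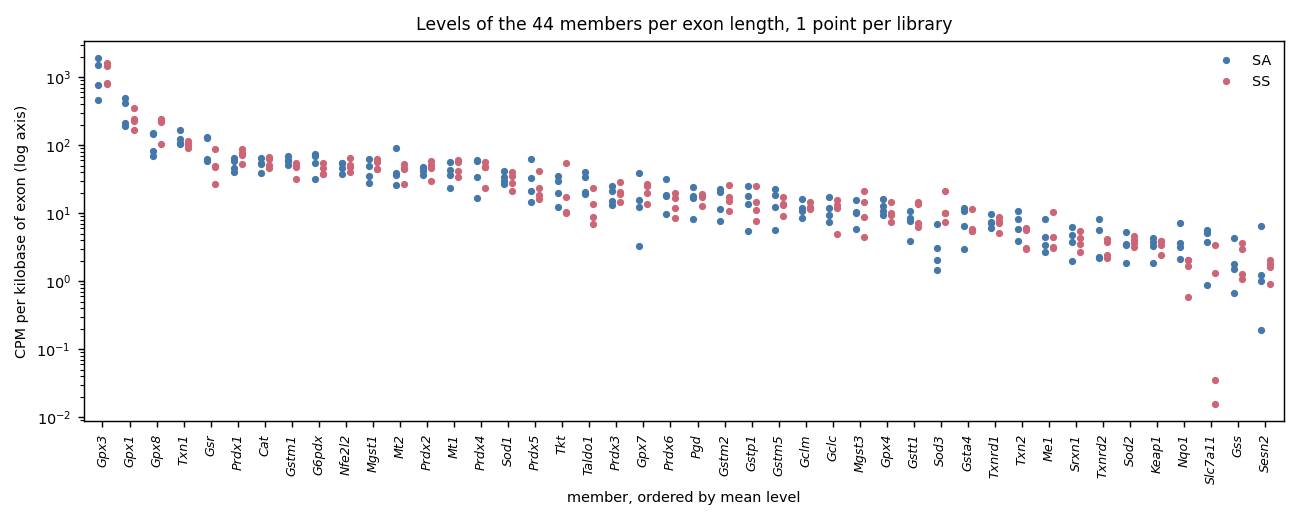
CPM per kilobase of exon (log axis) of the 44 members, ordered by mean level, with 1 point per library, SA in blue and SS in red. Gpx3 is highest and Sesn2 lowest, and the low points of Slc7a11 are SS replicates 2 and 4.

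Between genotypes no member passed the edgeR test, in which 0 of 17316 genes (0%) had an adjusted p under 0.05. The smallest adjusted p among members was 0.604, for Sod3. The log2 fold changes of SS over SA were above 0 for 21 of the 44 members and below 0 for 23, with a median of -0.03, beside a median of -0.01 over all genes and 49% of genes above 0. At an unadjusted edgeR p under 0.05 there were 4 members (9.09%), against 6.98% of all genes. They were Sod3 and Gpx8 with higher means in SS, where 4.03% of all genes had such a p, and Gsr and Taldo1 with lower means, beside 2.96% of all genes. The genotypes did not overlap for 2 members (4.55%), against 3.91% of all genes. Sod3 was higher in every SS library, as were 2.36% of all genes, and Nqo1 lower in every SS library, as were 1.55%. DESeq2 gave 1 member (Sod3) an adjusted p under 0.05, beside 1.65% of the 19321 genes it adjusted (0.926% higher in SS). The members' shares at an unadjusted p and without overlap lie near those of all genes.

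**Figure D2:**
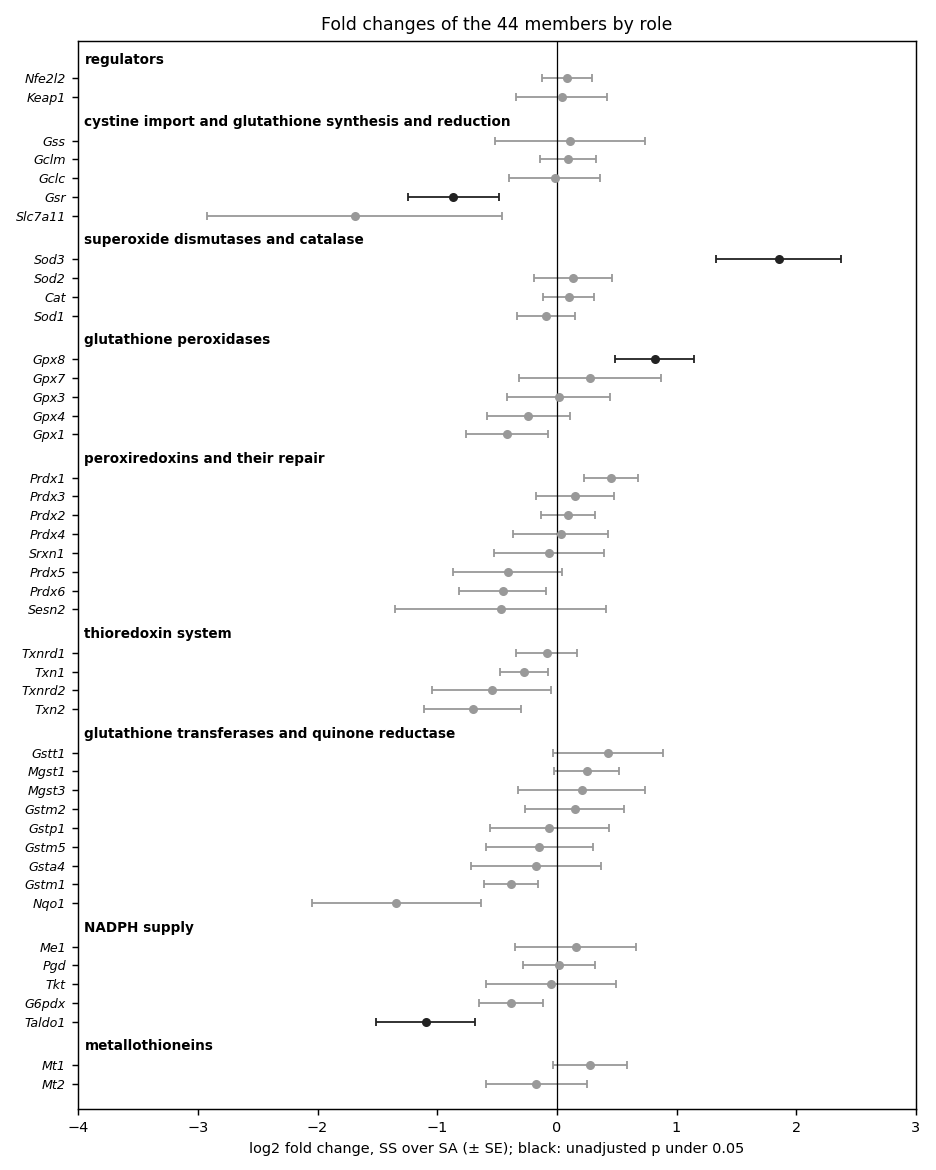
Log2 fold change of SS over SA with its SE for each of the 44 members, grouped by role, from edgeR (4 libraries per genotype). The 4 black points (Sod3, Gpx8, Gsr, Taldo1) have an unadjusted p under 0.05, and none passes after adjustment over all genes.

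The regulators overlapped between genotypes. Nfe2l2 (chr2:75675513-75704641), which encodes NRF2, was at 205, 207, 141 and 176 CPM in SA replicates 1 to 4 and at 180, 248, 193 and 152 CPM in SS replicates 1 to 4. The genotypes overlapped, with the highest value in SS replicate 2 (log2 fold change 0.08, SE 0.21, edgeR adjusted p = 0.960), and the sign turned when SA replicate 3 (-0.04) or SS replicate 2 (-0.05) was left out. Keap1 (chr9:21229730-21239361), its inhibitor, was at 8.68, 17.8, 20.1 and 15.3 CPM in SA and 18.4, 15.8, 11.2 and 18.2 CPM in SS. Both the lowest and the highest Keap1 values were in SA, and the fold change (0.04, SE 0.38, edgeR adjusted p = 0.992) was below 0 with the pan-leukocyte covariate (-0.02) and without the 3 leukocyte-rich libraries (-0.23). NRF2 is controlled chiefly as a protein, which these libraries do not measure.

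The genes of cystine import and glutathione supply had 3 of 5 fold changes below 0. Slc7a11 (chr3:49892526-50443614), the cystine carrier xCT that feeds glutathione synthesis, was at 71.2, 79.3, 52.5 and 12.3 CPM in SA and at 47.5, 0.217, 18.5 and 0.484 CPM in SS. SS replicates 2 and 4 were nearly without the transcript, while SS replicates 1 and 3 were within the SA range. The log2 fold change was -1.69 with an SE of 1.23 (edgeR adjusted p = 0.790), and leaving out 1 library at a time gave -3.07 to -1.28. The size depended on the fit, at -3.81 (SE 1.44, adjusted p = 0.598) by limma-voom, -2.34 without the 3 leukocyte-rich libraries and -1.003 (SE 0.75) with the pan-leukocyte covariate. The same 2 SS libraries had the lowest pan-leukocyte levels, and the 2 highest Slc7a11 values were in the 2 libraries with the most; the part of that RNA in the result was not tested.

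Gsr (chr8:33652523-33698163), glutathione reductase, which returns oxidised glutathione to its reduced form, was at 354, 361, 171 and 163 CPM in SA and 237, 131, 134 and 73.6 CPM in SS. The 3 leukocyte-rich libraries held the 3 highest values (237 CPM or more, against at most 171 in the other 5), and 3 of the 4 SS libraries were below every SA library. Gsr had a log2 fold change of -0.86 (SE 0.38, edgeR adjusted p = 0.701). With the pan-leukocyte level as a covariate it was -0.24 (SE 0.25), and without the 3 leukocyte-rich libraries -0.57 (SE 0.29). The synthesis enzymes were nearer to 0: Gclc and Gclm, the catalytic and modifier subunits of glutamate-cysteine ligase, had log2 fold changes of -0.02 and 0.09, and Gss, glutathione synthetase, 0.11, with edgeR adjusted p-values of at least 0.960. The level of Gclm was 53.5 to 102 CPM, of Gclc 18.6 to 64.1 CPM and of Gss 3.91 to 25.9 CPM over the 8 libraries.

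Among superoxide dismutases and catalase, the extracellular enzyme had the largest difference. Sod3 (chr5:52363791-52371418), which encodes the secreted superoxide dismutase that binds the extracellular matrix, was at 11.5, 5.49, 25.5 and 7.58 CPM in SA and 27.7, 78.2, 37.2 and 38.1 CPM in SS. Every SS library was above every SA library, though SS replicate 1 exceeded SA replicate 3 by little, and SS replicate 2 was the highest. Its log2 fold change was 1.85 (SE 0.52, edgeR adjusted p = 0.604), rank 132 of all genes by p. Sod3 was the single member with an unadjusted p under 0.05 in every fit run on all members, with log2 fold changes from 1.29 (SE 0.53) with the pan-leukocyte covariate to 2.45 without SA replicate 3. DESeq2 gave 1.84 with an adjusted p of 0.0476. That call was lost without SA replicate 1, 2 or 4 or SS replicate 2, 3 or 4 in turn (adjusted p = 0.0974 to 0.262 by DESeq2, refits chosen after seeing the call), and without the 3 leukocyte-rich libraries (0.172). Its level was among the lower ones of the group per length, at 3.35 ± 2.41 CPM per kilobase in SA and 12.1 ± 6.01 in SS.

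The intracellular enzymes of the group differed less between genotypes. Cat (chr2:103453849-103485160), catalase, which breaks down hydrogen peroxide, was at 167, 139, 101 and 144 CPM in SA and 133, 119, 160 and 177 CPM in SS. The 2 ranges largely coincided (log2 fold change 0.10, SE 0.22, edgeR adjusted p = 0.955), and without SA replicate 3 the sign turned (-0.04). Sod1, the cytosolic copper-zinc dismutase, was at 82.8 to 164 CPM over the 8 libraries with a log2 fold change of -0.09. Sod2, the mitochondrial manganese dismutase, was at 18.7 to 53.1 CPM with 0.13.

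Of the glutathione peroxidases, Gpx8 was lowest and Gpx1 highest in the leukocyte-rich libraries. Gpx8 (chr13:113042753-113046410) was at 84.5, 72.3, 159 and 151 CPM in SA and 108, 231, 250 and 233 CPM in SS. SS replicates 2, 3 and 4 lay above every SA library, and SS replicate 1 lay within the SA range. The 3 leukocyte-rich libraries were the 3 lowest, at 108 CPM or less. The log2 fold change was 0.82 (SE 0.33, edgeR adjusted p = 0.695), 0.31 (SE 0.24) with the pan-leukocyte covariate and 0.62 (SE 0.18) without those 3 libraries. Gpx1 (chr9:108338903-108340343) was at 597, 715, 306 and 271 CPM in SA and 502, 241, 351 and 321 CPM in SS. Its 3 highest values were the leukocyte-rich libraries, and the remaining 5 ranged from 241 to 351 CPM with the genotypes mixed. Its log2 fold change was -0.42 (SE 0.34, edgeR adjusted p = 0.821) in all libraries, 0.24 with the covariate and 0.08 without the 3 libraries, a change of sign. Gpx3 had a log2 fold change of 0.01 (SE 0.43), with levels from 837 to 3446 CPM and its 3 lowest values in the leukocyte-rich libraries. Gpx4, which reduces lipid peroxides in membranes, was at 12.6 to 27.4 CPM (-0.24), and Gpx7, like Gpx8 of the endoplasmic reticulum, at 4.27 to 50.4 CPM (0.27).

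**Figure D3:**
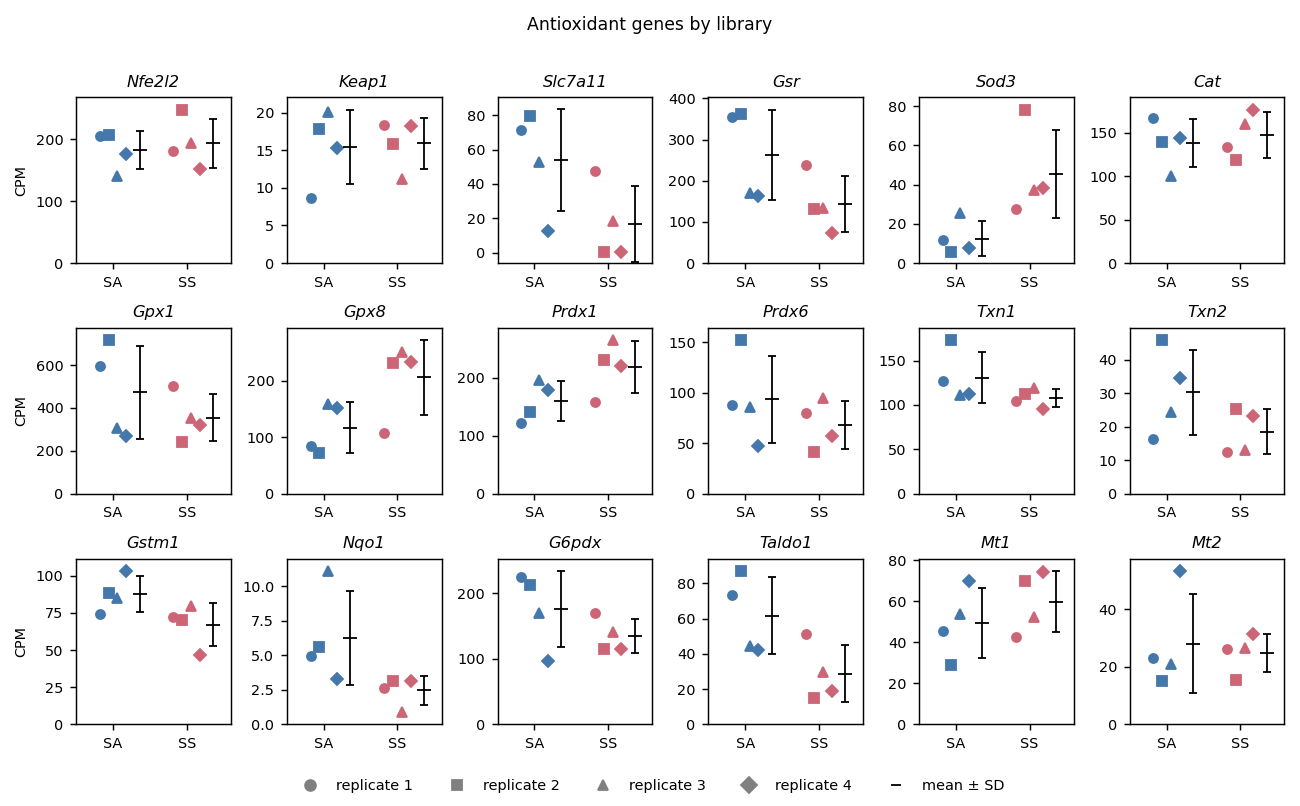
CPM of the 18 members described by library, with SA in blue, SS in red, 1 symbol per replicate number and the mean ± SD in black (n = 4 per genotype; the lower SD limit of Slc7a11 in SS falls below 0). Only in the Sod3 and Nqo1 panels do the 2 genotypes not overlap.

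Peroxiredoxins, which reduce peroxides with electrons from thioredoxin, had 4 fold changes above 0 and 4 below among 8 members with their repair proteins. Prdx1 (chr4:116685544-116700822), the main cytosolic peroxiredoxin, was at 122, 141, 197 and 179 CPM in SA and 158, 230, 265 and 221 CPM in SS. SS replicates 2 to 4 were above every SA library, and the 3 leukocyte-rich libraries were the 3 lowest. The log2 fold change was 0.45 (SE 0.22, edgeR adjusted p = 0.734), the largest of the group, and 0.22 (SE 0.21) with the covariate. Prdx6 (chr1:161240112-161251219), the 1-cysteine peroxiredoxin that uses glutathione, was at 88.2, 152, 86.2 and 47.2 CPM in SA and 80.0, 41.3, 94.4 and 56.8 CPM in SS. SA replicate 2 was the highest library by far. Its log2 fold change of -0.45 (SE 0.36, edgeR adjusted p = 0.816) was -0.12 without that library and 0.15 with the covariate. Prdx5, found in mitochondria and peroxisomes, had a log2 fold change of -0.41 and its 3 highest values in the leukocyte-rich libraries, at 70.1 to 135 CPM. Prdx4, the peroxiredoxin of the endoplasmic reticulum, had 0.03 and its 3 lowest values there, at 35.3 to 71.9 CPM. Prdx2, whose exons overlap those of Junb on the other strand, and the mitochondrial Prdx3 had log2 fold changes of 0.09 and 0.15. Srxn1, sulfiredoxin, which repairs overoxidised peroxiredoxins, was at 5.62 to 17.4 CPM (-0.07), and Sesn2, a stress-induced sestrin, at 0.662 to 22.3 CPM (-0.47, SE 0.89).

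In the thioredoxin system 4 of 4 log2 fold changes were below 0 (median -0.41; with the pan-leukocyte covariate that of Txnrd1 was 0.05), and none passed the test. The summed level of the 4 was 196 to 271 CPM in SA and 182 to 202 CPM in SS. Txn1 (chr4:57943373-57956411) was at 127, 173, 111 and 112 CPM in SA and 105, 113, 119 and 95.5 CPM in SS. SA replicate 2 set the upper end (log2 fold change -0.28, SE 0.20, edgeR adjusted p = 0.792). Txn2 (chr15:77915047-77929006), mitochondrial thioredoxin, was at 16.3, 45.8, 24.4 and 34.7 CPM in SA and 12.6, 25.3, 13.1 and 23.4 CPM in SS. The 2 lowest values were SS libraries, and SS replicates 2 and 4 lay within the SA range (-0.70, SE 0.40, edgeR adjusted p = 0.754). For Txn2 the log2 fold change was -1.02 (SE 0.49) with the pan-leukocyte covariate and -0.52 (SE 0.43) without the leukocyte-rich libraries. Txnrd1 and Txnrd2, the cytosolic and mitochondrial thioredoxin reductases, had log2 fold changes of -0.09 (SE 0.25) and -0.55 (SE 0.50). Txnrd1 was at 36.6 to 69.1 CPM and Txnrd2 at 9.50 to 36.2 CPM over the 8 libraries.

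The conjugating enzymes, glutathione transferases and the quinone reductase, had 4 fold changes above 0 and 5 below. Nqo1 (chr8:107388225-107403206), a quinone reductase widely used as a readout of NRF2 activity, was at 4.96, 5.59, 11.1 and 3.31 CPM in SA and 2.61, 3.15, 0.919 and 3.16 CPM in SS. Every SS library was below every SA library, but SS replicates 2 and 4 lay just under SA replicate 4. The log2 fold change was -1.34 (SE 0.70, edgeR adjusted p = 0.747), and by DESeq2 -1.36 with an adjusted p of 0.264. It was -1.53 with the covariate and -1.58 without the leukocyte-rich libraries, and without SA replicate 3, its highest library, -0.92. With 26 counts in its lowest library it is also among the least abundant members. Gstm1 (chr3:108012255-108017973), a mu-class transferase, was at 74.3, 88.02, 85.0 and 103 CPM in SA and 72.0, 69.95, 79.9 and 46.5 CPM in SS. SS replicate 3 exceeded SA replicate 1, and the other SS libraries were lower than every SA library (log2 fold change -0.38, SE 0.23, edgeR adjusted p = 0.754). The remaining transferases Gsta4, Gstm2, Gstm5, Gstp1, Gstt1, Mgst1 and Mgst3 had log2 fold changes from -0.18 (Gsta4) to 0.42 (Gstt1). Mgst1, a membrane-bound transferase, was at 55.6 to 127 CPM (0.25, SE 0.27), and 0.80 (SE 0.26, edgeR adjusted p = 0.709) without the leukocyte-rich libraries. Values of the mu-class genes and of Gstp1 are uncertain, since close family members could share reads.

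In the group named NADPH supply, which also holds non-oxidative enzymes of the pentose phosphate pathway, Taldo1 had the lowest fold change. Taldo1 (chr7:141392199-141402968), transaldolase of the non-oxidative pentose phosphate pathway, was at 73.4, 86.9, 44.7 and 41.9 CPM in SA and 51.3, 15.2, 29.9 and 19.1 CPM in SS. SS replicates 2, 3 and 4 were below every SA library, and SS replicate 1, the leukocyte-rich one, was above SA replicates 3 and 4. The log2 fold change was -1.10 (SE 0.41, edgeR adjusted p = 0.695). It was -0.50 (SE 0.25) with the covariate, and -1.02 (SE 0.40) without the 3 leukocyte-rich libraries, close to its value in all 8. G6pdx (chrX:74409483-74429194), glucose-6-phosphate dehydrogenase, the first enzyme of the oxidative branch, was at 224, 213, 170 and 97.3 CPM in SA and 170, 114, 141 and 116 CPM in SS. SA replicate 4 was the lowest library of all and the 2 highest were SA (log2 fold change -0.38, SE 0.27, edgeR adjusted p = 0.787). With the covariate the G6pdx value was 0.06. Pgd, the next dehydrogenase of that branch, was at 52.7 to 156 CPM (0.02), Me1, cytosolic malic enzyme, at 10.2 to 39.2 CPM (0.16), and Tkt, transketolase, at 73.3 to 406 CPM (-0.05, SE 0.54).

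The 2 metallothioneins, which bind zinc and copper and scavenge radicals, overlapped between genotypes. Mt1 (chr8:94179082-94180327) was at 45.3, 28.8, 53.9 and 69.9 CPM in SA and 42.7, 69.95, 52.3 and 74.3 CPM in SS. The leukocyte-rich libraries were the 3 lowest (log2 fold change 0.27, SE 0.31, edgeR adjusted p = 0.878, and -0.15 with the covariate). Mt2 (chr8:94172664-94173568), its neighbour on chromosome 8, was at 23.0, 14.97, 21.1 and 53.4 CPM in SA and 26.1, 15.6, 26.8 and 31.3 CPM in SS. SA replicate 4 was far above the rest of SA, and the Mt2 fold change of -0.17 (SE 0.42, edgeR adjusted p = 0.959) became 0.34 without it.

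The leukocyte content of the libraries moved with several members. The 15 pan-leukocyte markers all had log2 fold changes below 0 in SS (-1.79 to -0.86), and their summed level was 768 to 4827 CPM in SA and 377 to 2847 CPM in SS. The 13 neutrophil markers were likewise all below 0, with a summed 5975 to 34403 CPM in SA and 1319 to 16581 CPM in SS. Of the 10 B cell markers 10 were below 0, 6 of them with an adjusted p under 0.05 by DESeq2 and none by edgeR (6 with an unadjusted p under 0.05), and Vpreb1 and Ms4a1 were at 0 in some library. Their sum was 509 to 1836 CPM in SA and 398 to 419 CPM in SS. Most of the SS sum was Ebf1 (285 to 410 CPM in SA and 277.5 to 384 in SS, log2 fold change -0.05). The other 9, with log2 fold changes from -3.996 to -2.10, summed to 99.0 to 1479 CPM in SA and 14.1 to 137 CPM in SS. The part of B cell RNA in the members' values was not tested. Of the 8 macrophage markers 7 were above 0 (91.1 to 605 and 141 to 862 CPM), with Vsig4 at 0 in some library. Erythroid markers summed to 932 to 1781 CPM in SA and 422 to 1600 in SS, megakaryocyte markers to 6.55 to 308 and 5.58 to 28.7, and endothelial markers, with Stab2 at 0 in some library, to 10.9 to 106 and 15.4 to 156. Of the 14 erythroid markers 13 were below 0, 1 of them called by DESeq2. The 6 megakaryocyte markers were all below 0 (median log2 fold change -3.35), 1 of them called by DESeq2 and none by edgeR. Of these 6, 5 had an unadjusted edgeR p under 0.05, beside 2.96% of all genes lower in SS. Between the 3 libraries with 2847 CPM or more of pan-leukocyte RNA and the 5 with 1450 or less, 4 members (9.09%) were higher in each of the 3, against 8.05% of all genes: Gsr, Gpx1, Prdx5 and Taldo1. 7 members (15.9%) were lower in each of the 3, against 6.23% of all genes: Gpx3, Gpx8, Prdx1, Prdx4, Gstm2, Gstm5 and Mt1. The other 33 overlapped, Sod3 and Nqo1 among them. That split was made on measured transcripts, so it is a description without a test. The 10 stromal markers summed to 17755 to 40701 CPM in SA and 23113 to 35368 CPM in SS, most of it Cxcl12. The 3 leukocyte-rich libraries had the 3 lowest stromal sums, at 23113 CPM or less, against 23611 CPM or more in the other 5. The part of stromal RNA in the members' values was not tested.

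**Figure D4:**
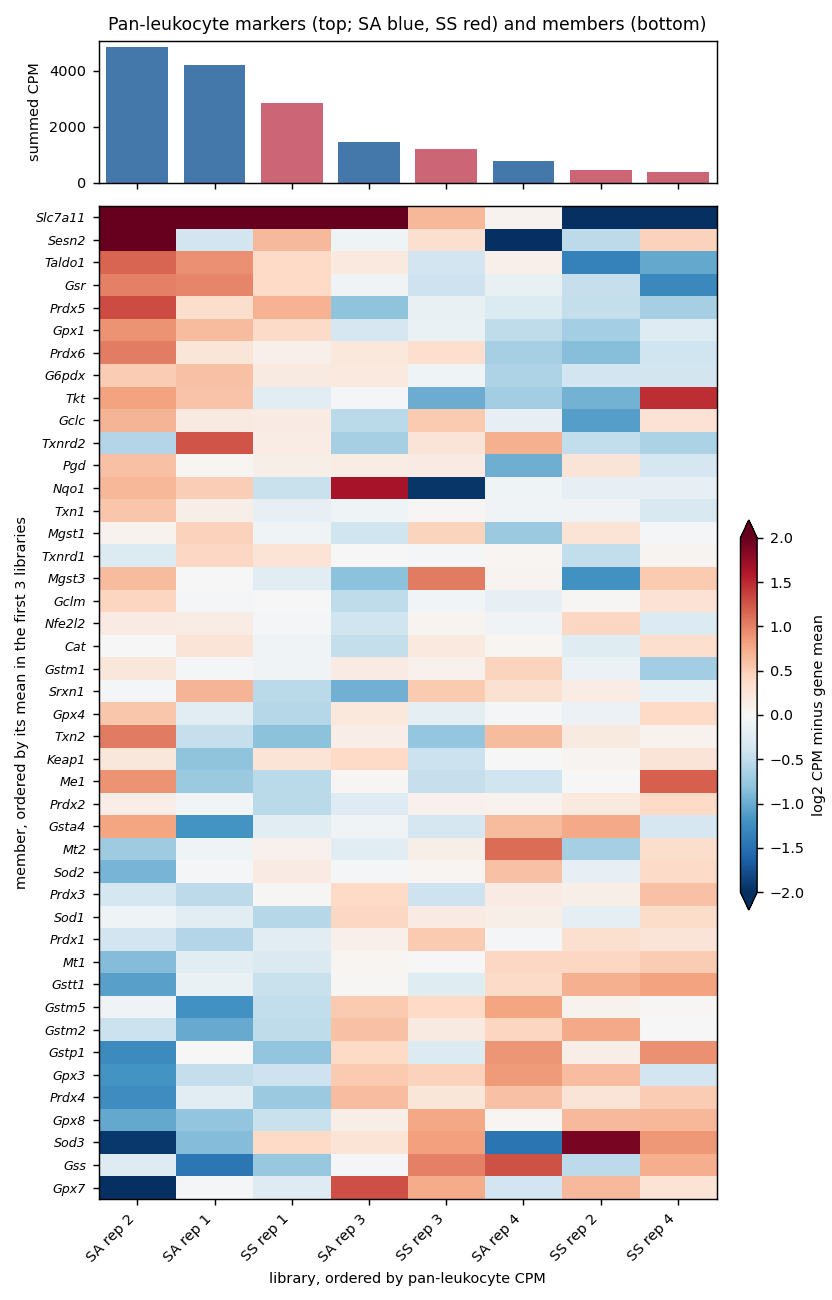
Top: summed CPM of 15 pan-leukocyte markers per library, SA in blue and SS in red. Bottom: log2 CPM of each member minus its mean over the 8 libraries (colour, limited to -2 to 2), libraries ordered by the top panel and members by their mean in the first 3 libraries, so that Gsr and Taldo1 lie near the top and Gpx8 and Sod3 near the bottom.

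With each library's pan-leukocyte level as a covariate, 1 of the 44 members (Sod3) had an unadjusted edgeR p under 0.05, against 5.06% of all genes, and the median log2 fold change of the members was -0.12. Without the 3 leukocyte-rich libraries, which left 2 SA and 3 SS, there were 4 (Gpx8, Mgst1, Sod3 and Taldo1), against 6.51%, and the median was -0.08. No member passed after adjustment in either fit. Sod3, Gpx8 and Prdx1 stayed above 0 and Slc7a11, Gsr, Taldo1, Nqo1, Txn2, Txn1 and Gstm1 below 0 in these 2 fits, whereas Gpx1 and Keap1 changed sign in both.

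**Figure D5:**
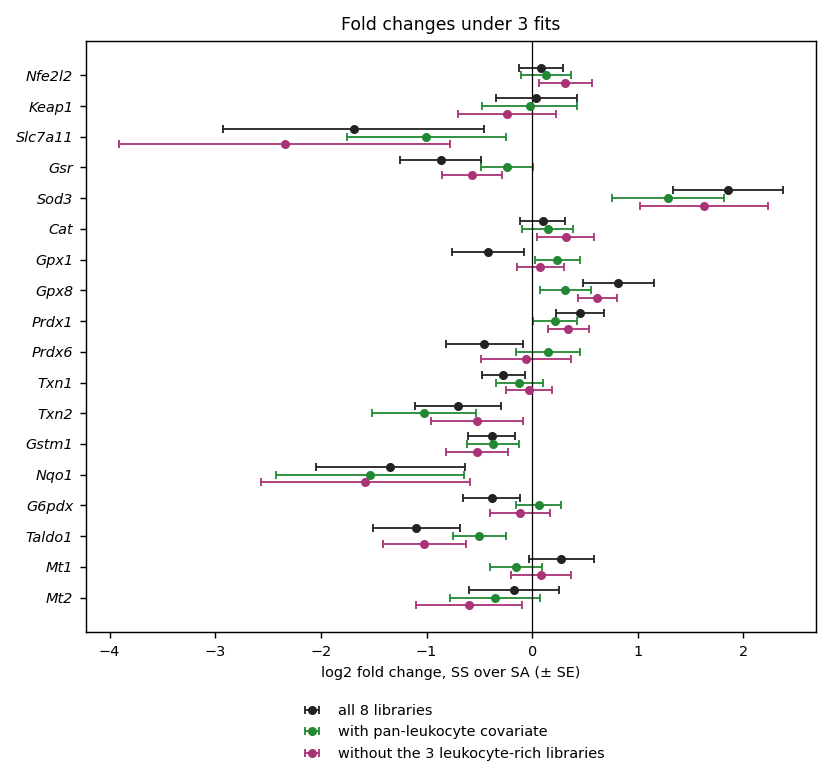
Log2 fold change of SS over SA with its SE for the 18 members described, from edgeR on all 8 libraries (black), with the pan-leukocyte level as a covariate (green) and without the 3 leukocyte-rich libraries (purple). Sod3 stays at 1.29 or more, and Gpx1 lies below 0 in the first fit only.

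No member holding the ARE core in its promoter window passed the test. Of the 13, 6 had log2 fold changes above 0 and 7 below, with a median of -0.07, from -0.47 (Sesn2) to 0.45 (Prdx1), and 0 had an unadjusted edgeR p under 0.05 (adjusted p = 0.734 to 0.995). Of the 26 matched members without the core in that window, 14 were above 0 and 12 below, with a median of 0.02. Of those 26, 2 (Gpx8 and Taldo1) had an unadjusted edgeR p under 0.05. With 6.98% of all genes at such a p, neither count stands out. Among the genes printed above, the log2 fold changes were 0.08 for Nfe2l2, 0.09 for Gclm, -0.09 for Txnrd1, 0.45 for Prdx1, -0.09 for Sod1 and -0.17 for Mt2. Sod3 and Gsr were not among the matched windows.

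The wider pathway was read from 74 further genes: NRF2 partners, further NRF2 targets, transferases, thiol repair, thioredoxin partners, NADPH supply, metal handling, selenoprotein supply and paraoxonases. Of these, 72 were tested, 36 with a log2 fold change above 0 and 36 below (median 0.01), and none passed the edgeR test. At an unadjusted edgeR p under 0.05 there were 6 (8.33%, against 6.98% of all genes), 4 with higher and 2 with lower means in SS. Idh1, the cytosolic isocitrate dehydrogenase that makes NADPH, was at 41.7, 86.7, 68.8 and 60.7 CPM in SA and 94.1, 111, 94.7 and 124 CPM in SS. It was the one gene of this list (1.39%, against 3.91% of all genes, 2.36% higher in SS) whose genotypes did not overlap (log2 fold change 0.72, SE 0.25, edgeR adjusted p = 0.695). Nfe2l1, which encodes the NRF2 relative NRF1, was at 61.6 to 118 CPM in SA and 92.0 to 187 CPM in SS (0.72, SE 0.28). Msrb3, a methionine sulfoxide reductase, was at 36.1 to 134 and 131 to 197 CPM (0.97, SE 0.36), and Me3, a mitochondrial malic enzyme, at 3.79 to 6.26 and 6.06 to 17.5 CPM (1.25, SE 0.50). With lower means in SS, Sephs2, which makes the selenium donor for selenoproteins such as glutathione peroxidases, was at 16.5 to 38.3 and 15.4 to 20.2 CPM (-0.82, SE 0.33), and Me2, another mitochondrial malic enzyme, at 43.2 to 68.9 and 24.2 to 51.6 CPM (-0.68, SE 0.30). Hmox1, haem oxygenase and a further NRF2 target, was at 126, 280, 101 and 52.3 CPM in SA and 211, 65.8, 311 and 83.6 CPM in SS. Each genotype held libraries of high and of low Hmox1 (0.26, SE 0.56, edgeR adjusted p = 0.954). Hmox1 was highest in SS replicate 3, SA replicate 2 and SS replicate 1, which also had the highest summed macrophage markers (862, 605 and 480 CPM). The part of macrophage RNA in the Hmox1 values was not tested.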

How the data were processed

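RNA was extracted and libraries were made with low-input kits, per the labels' protocols. The authors deposited a table of raw counts, 1 row per gene symbol, used here, and a second table that holds the same counts divided by 1 factor per library, not used here. Per the submitters' processing notes, the tools were bcl2fastq, STAR, DESeq2 and featureCounts, and the builds GRCm38 and mm10, with no versions. Neither the annotation nor the strand setting is stated, so reads of overlapping genes cannot be separated. In GENCODE M21, 11 of the 44 members share exon bases with another gene (Prdx2 with Junb, Keap1, Gss, G6pdx and Txnrd2 among them). Libraries were grouped by title. 1 lane of SS replicate 4 is SS by its title and SA by its other labels, and was kept in SS. Titles number the libraries, and if these are not separate animals, p-values measure only the spread between libraries. No 2 libraries held identical counts.

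Genes were kept by filterByExpr and scaled by TMM factors, and the genotypes were compared with the robust quasi-likelihood F test of edgeR 4.0.16 (R 4.3.3), p-values adjusted by Benjamini-Hochberg across those 17316 genes and a threshold of 0.05. The SE is the log2 fold change divided by the root of F. CPM per kilobase divides by the GENCODE M21 union exon length. The covariate was the mean log2 CPM of 15 pan-leukocyte markers. Alternatives were DESeq2 1.42.0, limma-voom 3.58.1, other scaling and filters, the replicate block, the covariate, and libraries left out. Scripts were tested on simulated counts. The members, role groups and lists were chosen with earlier results of these data known. Described in full are members with an unadjusted p under 0.05, a DESeq2 call or no overlap, the 2 of smallest p in each role group, and both regulators; of the wider pathway the 6 of smallest p are named, and Hmox1 and the B cell sum without Ebf1 were added after values were seen.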

Additional observations from a re-analysis of the deposited data

Results flagged for a closer look

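In each genotype's 4 libraries, the highest or lowest CPM of each member was compared with the rest by Dixon's gap test at its 95% critical value. Chance flags about 1 in 20 groups, and 4 of 88 groups were flagged. Gpx8 was at 108 CPM in SS replicate 1, below the other SS libraries, of which the nearest was at 231 CPM. SS replicate 1 is the leukocyte-rich SS library, with 2847 CPM of summed pan-leukocyte markers, and the part of that RNA in the Gpx8 value was not tested. Sesn2 was at 22.3 CPM in SA replicate 2, and the nearest other SA library was at 4.28 CPM. Gsta4 was at 14.7 CPM in SS replicate 2, the library with high Xist, and the nearest other SS library was at 7.40 CPM. Tkt was at 406 CPM in SS replicate 4, and the nearest other SS library was at 126 CPM.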

How the results depend on the processing

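The count of members called by edgeR was 0 in each alternative but DESeq2, which called 1 (Sod3, 1.84) and 319 genes in all. Without a low-count filter edgeR called 5 genes, and leaving out 1 library at a time gave 0 to 1, the 1 without SS replicate 1. Over 17 alternatives the 18 described fold changes gave 306 values: 291 kept their direction and side of the threshold, 14 in 8 members turned and 1 (Sod3) passed. With the pan-leukocyte covariate the values that turned were Keap1 -0.0244, Gpx1 0.24, Prdx6 0.15, G6pdx 0.0600 and Mt1 -0.15, and without the 3 leukocyte-rich libraries Keap1 -0.235 and Gpx1 0.0776. With 1 library left out they were Keap1 (-0.16 to 0.18; below 0 without SA replicate 1, SS replicate 1 or SS replicate 4), Nfe2l2 (-0.0543 to 0.186; below 0 without SA replicate 3 or SS replicate 2), Cat (-0.0360 to 0.198; below 0 without SA replicate 3) and Mt2 (-0.38 to 0.34; above 0 without SA replicate 4). The cause was not tested. The members' median ran from -0.10 to 0.06 with 1 library left out, and the number with an unadjusted p under 0.05 from 1 (without SA replicate 2 or SS replicate 2, where 5.40% and 4.92% of all genes had such a p) to 6 (without SS replicate 1, with 10.8% of all genes). Sod3 by DESeq2, refitted after its call was seen, ran from 1.45 to 2.45 with 1 library left out (adjusted p = 0.000212 to 0.262), and 1.61 without the 3 leukocyte-rich libraries. Replicate numbers gave no sign of pairing: same-numbered deviations correlated at 0.22, -0.15, -0.02 and 0.14, and differently numbered ones at -0.28 to 0.22. Such values cannot show that no pairing exists. With the replicate block, edgeR called 0 members, 6 had an unadjusted p under 0.05 (7.25% of all genes did), the median was 0.03, and Slc7a11 was at -3.30, against -1.69 without the block. The pan-leukocyte difference of SS minus SA was -1595 CPM, and -2275 to -923 with 1 library left out. The SEs of the described fold changes, from 0.20 (Txn1) to 1.23 (Slc7a11), limit what 4 libraries per genotype could show.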
